A study of Mus musculus with 6 samples.

Results

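Solute carriers are the membrane proteins that move bile salts, drugs, sugars, amino acids, metals and ions across the plasma membrane and the membranes of organelles. The genes described here are all rows of the count table whose symbol begins with Slc or Slco and a number, without the mitochondrial Slc25a family, and whose mean raw count over the 6 libraries was at least 30. There were 197 such genes among the 15565 in the table, and all 197 passed the expression filter of the test, which left 13288 genes. The genes were chosen by their level (the mean raw count), so that a high level is not a finding, while the contrast between the cell groups was not used. Of 266 such symbols at any level 69 lay below the minimum, and 43 Slc25a symbols were left out. Just above it were Slc28a3 and Slco1a6 with mean counts of 30.2 and 30.8, and just below it Slc22a3, Slc15a2 and Slc15a5 with 29.3, 27.8 and 27.8. The minimum was met through TERT(High) libraries alone by 2 genes and through TERT(Low) libraries alone by 7 genes. Of the 197 genes 5 encode no transporter despite the symbol, and 1 of these, Slc36a1os, has no annotated coding transcript.

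The cells were hepatocytes of 3 C57BL/6 mice aged 2 months, isolated by collagenase perfusion and sorted into TERT(High) cells and TERT(Low) cells, both from each mouse. All 6 libraries share the genotype Tert(CreERT2/+); R26(LSL-Tomato/+), in which an inducible recombinase sits at 1 copy of Tert and a recombinase-dependent red reporter at 1 copy of R26. Hence 1 copy of Tert carries the insertion in both groups. The labels used here do not state on which signal the cells were sorted. The comparison asks how hepatocytes with high Tert expression differ in RNA from those with low expression in the same liver. Library totals in units of 1e6 counts ran from 53.6 to 64.1 in TERT(High) cells and from 55.4 to 76.2 in TERT(Low) cells. Levels below are counts per 1e6 counts after TMM scaling (CPM), and a difference is the log2 fold change of TERT(High) over TERT(Low) cells with its standard error (SE). Each mean carries its SD over 3 libraries, and 3 values of a group stand in the order of mice 1, 2 and 3.

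Hepatocytes take up bile salts and organic anions from the blood through Slc10a1 and the Slco carriers. They exchange glucose through Slc2a2 and glutamine through Slc38a3, and they release bile salts into bile through ATP-driven pumps that belong to other families. Carriers of the Slc35 family supply nucleotide sugars to the endoplasmic reticulum and the Golgi apparatus, and carriers of the Slc30 and Slc39 families move zinc, manganese and iron. The 10 hepatocyte marker genes summed to 120210 to 139337 CPM in TERT(High) cells and 114089 to 133133 CPM in TERT(Low) cells. The 197 solute carriers together made up 9255 to 12549 CPM in TERT(High) cells and 9964 to 13015 CPM in TERT(Low) cells.

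Promoter sequences were available for 151 of the 197 genes in RefSeq on GRCm38.p6, each from 250 bases before to 50 bases after the transcript start. The first pair, Slc22a28 (chr19:8131933-8132232, minus strand) and Slc22a30 (chr19:8405056-8405355, minus strand), belongs to paralogs of the organic anion carrier family on the same chromosome and is shown because the RNA of both was highest in mouse 1. Of 294 aligned bases 288 were identical (98.0%), and capitals mark the 6 bases that differ.
Slc22a28: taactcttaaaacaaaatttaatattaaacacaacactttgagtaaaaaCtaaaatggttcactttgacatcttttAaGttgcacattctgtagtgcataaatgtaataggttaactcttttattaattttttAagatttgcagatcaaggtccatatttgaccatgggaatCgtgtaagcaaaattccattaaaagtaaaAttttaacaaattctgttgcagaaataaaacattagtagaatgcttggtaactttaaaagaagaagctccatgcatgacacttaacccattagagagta
Slc22a30: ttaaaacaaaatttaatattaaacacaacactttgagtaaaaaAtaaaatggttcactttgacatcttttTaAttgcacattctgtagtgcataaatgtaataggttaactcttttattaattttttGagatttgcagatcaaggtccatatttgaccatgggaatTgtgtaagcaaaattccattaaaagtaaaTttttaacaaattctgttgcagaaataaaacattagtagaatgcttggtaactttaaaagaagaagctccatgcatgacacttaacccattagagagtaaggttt
The second pair, Slco1a1 (chr6:141946913-141947212, minus strand) and Slco1a4 (chr6:141856171-141856470, minus strand), belongs to organic anion uptake carriers on the same chromosome, of which Slco1a1 was highest and Slco1a4 lowest in mouse 1. Capitals mark matches on either strand to TATAAA, the TATA box, and to AGGTCA, a core motif of nuclear receptors, in Slco1a1, and to CCAAT, the CCAAT box, in Slco1a4.
Slco1a1: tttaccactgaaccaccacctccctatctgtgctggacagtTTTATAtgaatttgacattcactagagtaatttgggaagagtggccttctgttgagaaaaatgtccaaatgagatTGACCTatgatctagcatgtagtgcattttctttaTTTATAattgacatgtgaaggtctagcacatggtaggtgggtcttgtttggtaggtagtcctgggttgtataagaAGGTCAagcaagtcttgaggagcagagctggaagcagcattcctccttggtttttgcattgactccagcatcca
Slco1a4: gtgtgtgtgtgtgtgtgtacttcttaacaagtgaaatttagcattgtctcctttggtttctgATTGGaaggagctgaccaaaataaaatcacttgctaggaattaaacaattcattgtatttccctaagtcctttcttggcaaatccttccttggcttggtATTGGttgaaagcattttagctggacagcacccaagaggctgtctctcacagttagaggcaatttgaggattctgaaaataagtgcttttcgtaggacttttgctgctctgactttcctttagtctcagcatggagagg
The last is that of Slc22a2 (chr17:12583939-12584238, plus strand), a cation carrier called lower with the mouse as a block, with its CCAAT matches in capitals.
Slc22a2: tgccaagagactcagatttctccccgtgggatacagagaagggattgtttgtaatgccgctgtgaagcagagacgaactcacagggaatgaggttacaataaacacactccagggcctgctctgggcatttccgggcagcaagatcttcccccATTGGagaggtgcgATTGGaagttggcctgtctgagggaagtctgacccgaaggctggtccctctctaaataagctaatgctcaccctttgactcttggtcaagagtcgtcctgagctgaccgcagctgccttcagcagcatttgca
Among the 209 promoters of the solute carriers, TATAAA was found in 10.5%, AGGTCA in 17.2% and CCAAT in 30.6%, on either strand. Across all 32851 promoters of that table the shares were 13.6%, 16.3% and 37.4%. TTCNNNGAA, the STAT motif, was found in 9.09% of the solute carrier promoters and 8.30% of all. None of these matches was tested for binding, and motifs were searched on both strands without a rule against overlap.

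In the quasi-likelihood test of edgeR, with Benjamini-Hochberg adjustment over all tested genes, 1 solute carrier was higher and 1 was lower in TERT(High) cells. Slc4a4, a sodium bicarbonate cotransporter, rose. Both calls together were 1.02% of the solute carriers, against 8.14% of all tested genes (4.43% higher, 3.71% lower). At an unadjusted p under 0.05, 7 solute carriers were higher and 18 were lower, against 16.3% and 12.4% of all tested genes. Values of the groups did not overlap for 10 genes with TERT(High) above and 22 with TERT(High) below, against 17.5% and 15.9% of all tested genes. With the mouse as a block the calls were 2 higher (Slc4a4 and Slc35d1) and 4 lower (among them Slc22a2, Slc35b2 and Slc16a11), against 5.43% and 4.30% of all tested genes (9.72% in all). DESeq2 called 5 higher and 13 lower, 9.14% of the solute carriers against 20.2% of all tested genes (10.9% higher, 9.31% lower). In the authors' deposited table, which holds 184 of the genes, 8 were higher and 27 lower at an adjusted p under 0.05, against 15.8% and 13.4% of its 10858 genes.

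Most solute carriers differed little. Of the 197 log2 fold changes 139 lay within 0.5 of 0. The matching share of all tested genes was not counted, so this is not shown to be particular to the family. In the family 73 were positive and 124 negative, against 6541 and 6747 of all 13288 tested genes. Their median was -0.14, against -0.01 over all tested genes. Within mice 1, 2 and 3 the median log2 difference was 0.01, -0.24 and -0.07. Scaling by library totals alone moved the median of the solute carriers to 0.03 and that of all tested genes to 0.14, so that the sign of the family's median flipped while it stayed below that of all genes. The plot of fold changes by substrate group shows that the lowest values came from a set of genes described further below.

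**Figure D1:**
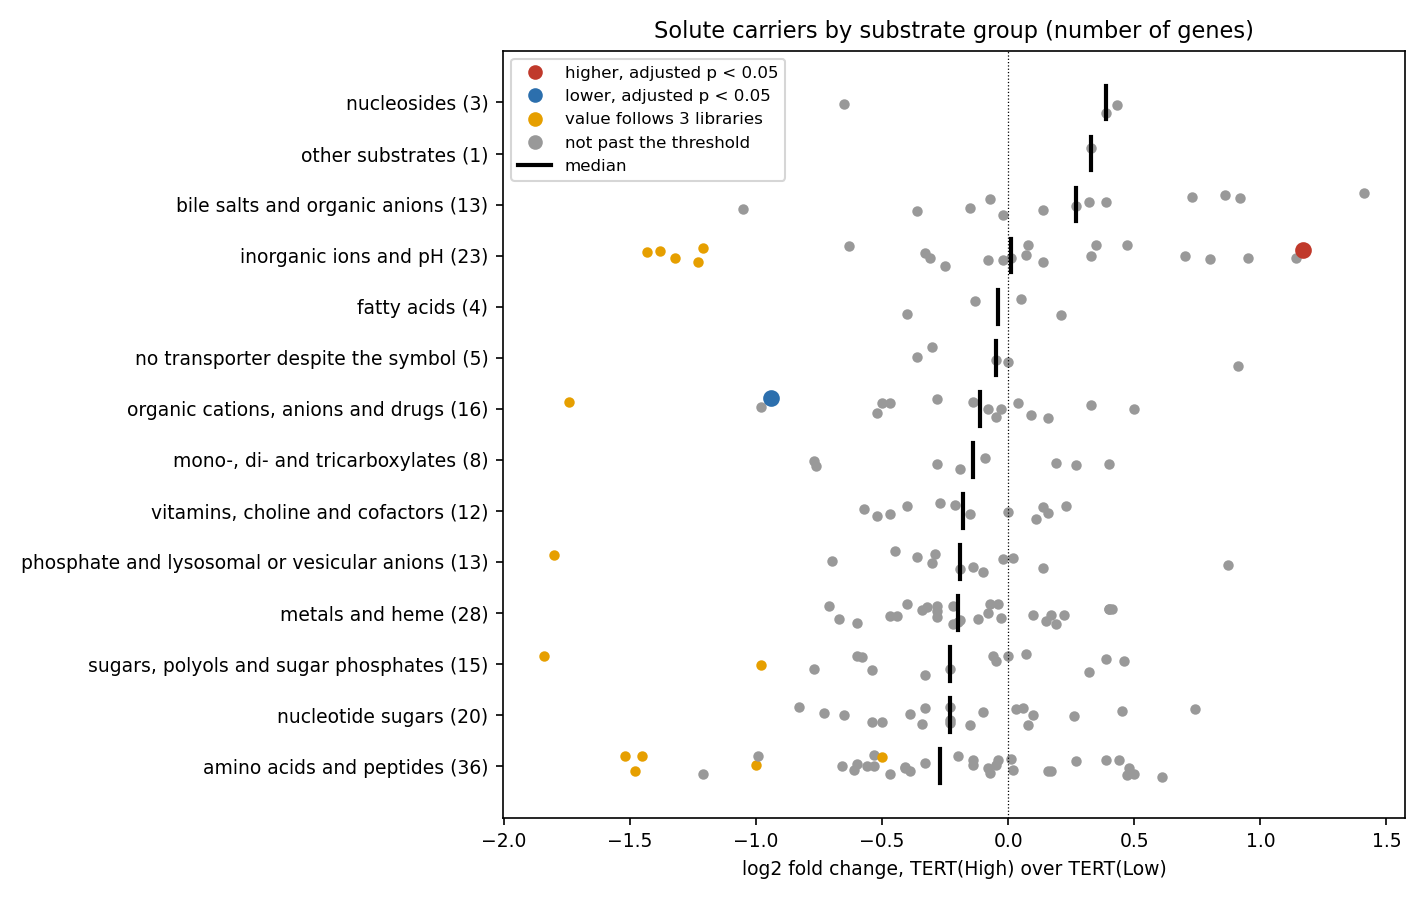
Log2 fold change (TERT(High) over TERT(Low), horizontal axis) of each of the 197 solute carriers, in rows by substrate group with the number of genes and a black bar at the group's median. Red marks the gene that rose (Slc4a4), blue the gene that fell, orange the 14 genes whose values follow 3 libraries, and grey all others, of which most lie within 0.5 of 0.

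Slc4a4 (Entrez gene 54403, chromosome 5, 88793858 to 89239656) carries sodium together with bicarbonate and so takes part in the control of cell pH. It reached 33.5, 37.5 and 26.2 CPM in TERT(High) cells (mice 1 to 3), against 13.4, 17.2 and 12.7 CPM in TERT(Low) cells. Every TERT(High) value lay above every TERT(Low) value. The means were 32.4 ± 5.75 and 14.4 ± 2.42 CPM (SD, n = 3 each), a ratio of 2.25, with a log2 fold change of 1.17 (SE 0.20, edgeR adjusted p = 0.0296). That call was lost without TERT(High) of mouse 2 or 3 (edgeR adjusted p = 0.0892 and 0.148) and without TERT(Low) of mouse 1, 2 or 3 (0.102, 0.0979 and 0.102). It was also lost after a correction for transcript length and GC content (0.99, edgeR adjusted p = 0.0772), under which no tested gene passed (smallest adjusted p = 0.0588). Over these settings the log2 fold change stayed between 0.99 and 1.32. DESeq2 called Slc4a4 with each library left out, with adjusted p from 4.96e-06 to 0.00234.

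Among the other 22 carriers of inorganic ions 3 were higher in TERT(High) cells without passing the threshold. Of the 23 genes of this group 4 were higher and 0 lower at unadjusted p below 0.05, where 16.3% of all tested genes were higher and 12.4% lower. The median log2 fold change was 0.01, and -0.18 after the length and GC correction. Slc12a2, the sodium-potassium-chloride cotransporter, had 6.01, 3.32 and 4.82 CPM in TERT(High) cells (mice 1 to 3) and 2.57, 2.37 and 2.35 CPM in TERT(Low) cells (0.95, SE 0.26, edgeR adjusted p = 0.0654). The groups of Slc12a2 did not overlap, and DESeq2 called it with an adjusted p of 0.0264. Slc4a7, another sodium bicarbonate cotransporter, had 9.27, 4.92 and 6.18 CPM in TERT(High) cells, against 3.60, 3.97 and 4.15 CPM in TERT(Low) cells (0.80, SE 0.26, edgeR adjusted p = 0.103). Slc26a2, a sulfate transporter, averaged 4.01 ± 2.10 CPM in TERT(High) cells and 1.82 ± 0.507 CPM in TERT(Low) cells (SD, n = 3 each), and its groups overlapped (1.14, SE 0.44, edgeR adjusted p = 0.148). The length and GC correction turned Slc4a7 to -0.18 and lowered Slc12a2 to 0.18 and Slc26a2 to 0.31. These 3 genes, and those named below at an unadjusted p only, were chosen after their values were seen.

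Some of these carriers are also known from bile duct and endothelial cells, whose markers were present. The 4 cholangiocyte markers in the table, of 8 listed, summed to 9.09 to 15.0 CPM in TERT(High) cells and 4.13 to 7.66 CPM in TERT(Low) cells, and the defining marker Epcam had 0 to 6 counts in each library. The 8 endothelial markers summed to 33.1 to 61.2 CPM in TERT(High) cells and 24.2 to 27.8 CPM in TERT(Low) cells, and 2 of them rose, Kdr at 7.10 ± 0.760 against 2.74 ± 0.346 CPM and Lyve1 at 2.72 ± 0.894 against 0.988 ± 0.124 CPM (edgeR adjusted p = 0.0277 and 0.0452). The 8 macrophage markers summed to 14 to 78.9 CPM in TERT(High) cells and 11.1 to 34.8 CPM in TERT(Low) cells. The 7 neutrophil markers summed to 1.99 to 7.70 CPM in TERT(High) cells and 0.313 to 1.48 CPM in TERT(Low) cells. The 8 stellate markers summed to 4.24 to 142 CPM in TERT(High) cells and 4.53 to 10 CPM in TERT(Low) cells, and 6 erythroid markers to 17.5 to 206 and 39.8 to 61.0 CPM. B cell markers reached at most 0.261 CPM in TERT(High) cells and 0.152 CPM in TERT(Low) cells, and T and NK cell markers at most 1.15 and 1.21 CPM. What part these cells had in the solute carrier values was not tested, and in such bulk libraries fewer cells of a type and less RNA per cell cannot be told apart.

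Among the 16 carriers of organic cations, anions and drugs, Slc22a2 came close to the threshold, with lower values in TERT(High) cells. Slc22a2 (chromosome 17, 12584189 to 12628489), a cation carrier known mainly from the kidney, had 7.39, 6.49 and 4.67 CPM in TERT(High) cells (mice 1 to 3) and 14.6, 12.6 and 9.41 CPM in TERT(Low) cells. Its groups did not overlap, with a log2 fold change of -0.98 (SE 0.25, edgeR adjusted p = 0.0579), called with the mouse as a block (adjusted p = 0.0407) and by DESeq2 (adjusted p = 0.00669). Its level per kilobase of transcript was 2.82 CPM per kb in TERT(High) cells and 5.56 CPM per kb in TERT(Low) cells. Slc47a1, which expels organic cations into bile, averaged 118 ± 12.3 CPM in TERT(High) cells and 164 ± 18.0 CPM in TERT(Low) cells (SD, n = 3 each; -0.47, SE 0.15, edgeR adjusted p = 0.0995), without overlap of the groups. DESeq2 called it lower (adjusted p = 0.0355). Slc22a7, an organic anion carrier, was at 25.7 ± 10.1 CPM in TERT(High) cells and 36.9 ± 16.6 CPM in TERT(Low) cells, and Slc22a5, the carnitine carrier, at 19.6 ± 12.2 and 21.5 ± 9.88 CPM, both with wide overlap.

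**Figure D2:**
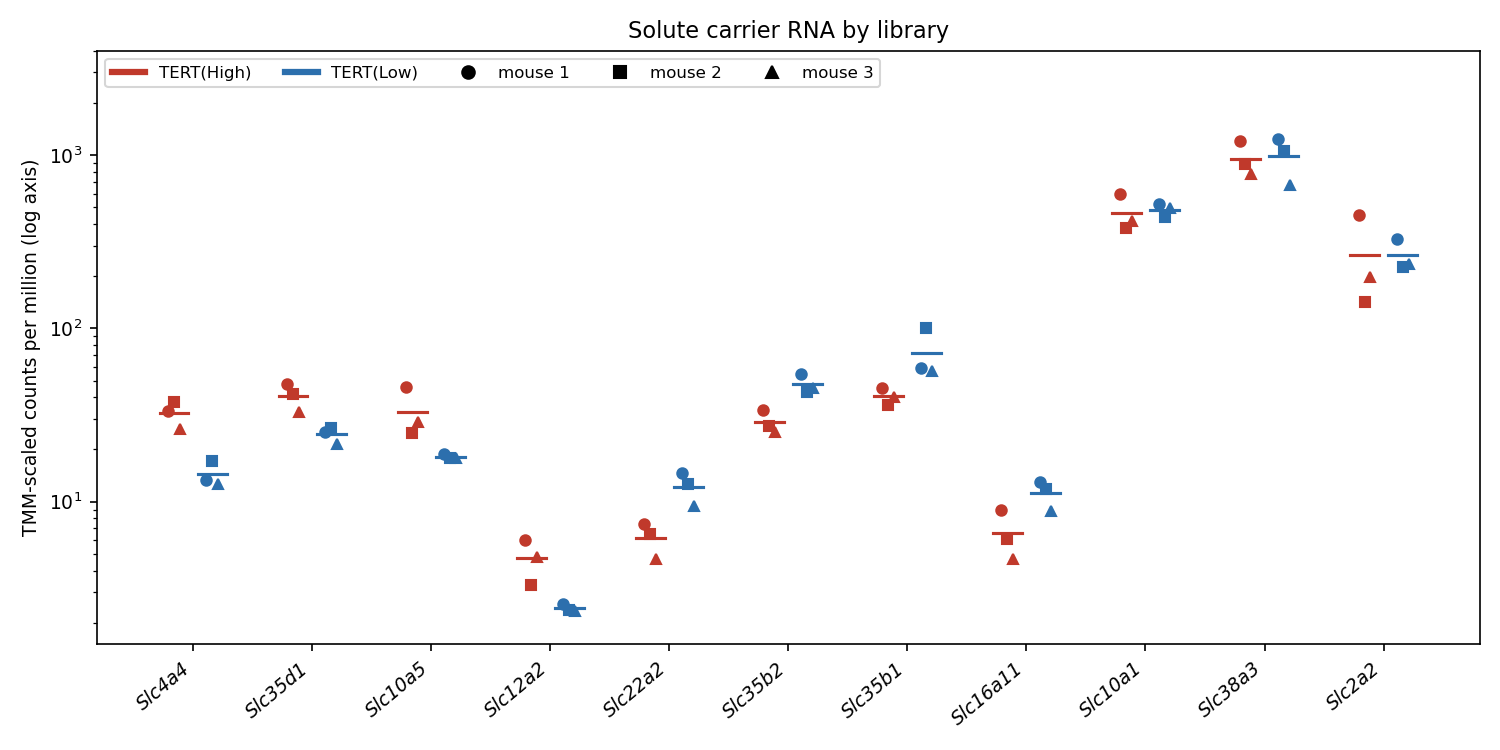
Counts per 1e6 counts (CPM) after TMM scaling (log axis) of 11 solute carriers in each of the 6 libraries, TERT(High) in red left of TERT(Low) in blue, with symbols for the mice and a line at each mean. Slc4a4 in TERT(High) cells lies between 26.2 and 37.5 CPM, above 12.7 to 17.2 CPM in TERT(Low) cells, and Slc22a2 lies between 4.67 and 7.39 CPM, below 9.41 to 14.6 CPM in TERT(Low) cells, while Slc10a1, Slc38a3 and Slc2a2 overlap.

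The main uptake carriers for bile salts and organic anions did not pass the test. Among the 13 genes of this group edgeR called 0, with 1 higher and 0 lower at unadjusted p below 0.05, against 16.3% and 12.4% of all tested genes. DESeq2 called 1 higher, against 10.9% of all tested genes. The group's median log2 fold change was 0.27, positive under all 4 scalings but -0.12 after the length and GC correction. Slc10a1, the sodium-dependent bile salt carrier, had 594, 377 and 415 CPM in TERT(High) cells (mice 1 to 3), against 523, 437 and 495 CPM in TERT(Low) cells (-0.07, SE 0.21, edgeR adjusted p = 0.852). Slco1b2, a liver-specific organic anion carrier, had 814, 303 and 512 CPM in TERT(High) cells and 282, 162 and 417 CPM in TERT(Low) cells. It was higher in the TERT(High) cells of each mouse, yet the groups overlapped (0.92, SE 0.45, edgeR adjusted p = 0.240), and correcting for length and GC content lowered the log2 fold change to 0.45. Slco2b1 was at 106 ± 16.7 CPM in TERT(High) cells and 118 ± 47.2 CPM in TERT(Low) cells. Slc10a5, a family member whose substrate is not established, was the gene DESeq2 called (adjusted p = 0.0195), with 45.6, 24.9 and 28.8 CPM in TERT(High) cells and 18.9, 17.9 and 17.8 CPM in TERT(Low) cells (0.86, SE 0.24, edgeR adjusted p = 0.0719). The length and GC correction lowered the log2 fold change of Slc10a5 to 0.41.

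The 20 carriers of the Slc35 family, many of which supply the Golgi apparatus and the endoplasmic reticulum, gave values near the threshold in both directions. edgeR called 0 of them, with 1 higher and 4 lower at unadjusted p below 0.05, against 16.3% and 12.4% of all tested genes. DESeq2 called 1 higher and 3 lower, against 10.9% and 9.31% of all tested genes. The median was -0.23, and negative under all 4 scalings. Slc35d1, which brings UDP-glucuronic acid into the endoplasmic reticulum for glucuronidation, had 47.7, 42.0 and 33 CPM in TERT(High) cells (mice 1 to 3) and 25.3, 26.7 and 21.6 CPM in TERT(Low) cells (0.74, SE 0.18, edgeR adjusted p = 0.0552, and 0.0440 with the mouse as a block). Slc35b2, which brings the sulfate donor PAPS into the Golgi apparatus, had 33.6, 27.5 and 25.1 CPM in TERT(High) cells and 54.8, 43.1 and 45.5 CPM in TERT(Low) cells (-0.73, SE 0.17, edgeR adjusted p = 0.0515, and 0.0412 with the block). The groups of Slc35d1 and of Slc35b2 did not overlap, in opposite directions. Slc35b1, a carrier of the endoplasmic reticulum, averaged 40.6 ± 4.39 CPM in TERT(High) cells and 72.4 ± 24.6 CPM in TERT(Low) cells, and Slc35c2 of the Golgi apparatus 25.4 ± 3.38 and 39.7 ± 7.84 CPM (SD, n = 3 each). DESeq2 called both lower, with adjusted p of 0.0132 and 0.0199. After the length and GC correction the log2 fold changes were 0.33 for Slc35d1, -0.49 for Slc35b2, -0.49 for Slc35b1 and -0.42 for Slc35c2.

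Metal carriers held no edgeR call. Of 28 genes 0 were higher and 4 lower at unadjusted p below 0.05, where 12.4% of all tested genes were lower, so that the share is close to that of all genes. DESeq2 called the same 4 lower, where it called 9.31% of all tested genes lower. The group's median was -0.20, negative under all 4 scalings. The 4 genes were zinc carriers. Slc39a1, which takes up zinc at the cell surface, had 98.4, 92.9 and 71.9 CPM in TERT(High) cells (mice 1 to 3) and 123, 168 and 128 CPM in TERT(Low) cells (-0.67, SE 0.19, edgeR adjusted p = 0.0762). Slc30a6, a zinc carrier of the Golgi apparatus, averaged 13 ± 1.39 CPM in TERT(High) cells and 21.2 ± 4.38 CPM in TERT(Low) cells (-0.71, SE 0.19, edgeR adjusted p = 0.0678). Slc39a3 was at 6.32 ± 0.390 and 8.56 ± 0.494 CPM, and Slc39a11, which overlaps Cog1 and Sstr2 so that its reads are uncertain, at 26.6 ± 5.48 and 40.3 ± 3.22 CPM. In each of the 4 genes the groups did not overlap. The iron exporter Slc40a1 was at 84.5 ± 14.1 CPM in TERT(High) cells and 86.4 ± 32.1 CPM in TERT(Low) cells, the zinc, iron and manganese carrier Slc39a14 at 140 ± 36.3 and 126 ± 35.5 CPM, and the manganese exporter Slc30a10 at 26.0 ± 3.55 and 31.7 ± 18.7 CPM.

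Amino acid carriers formed the largest group, with 36 genes. edgeR called 0 of them, with 0 higher and 4 lower at unadjusted p below 0.05, against 16.3% and 12.4% of all tested genes. DESeq2 called 2 lower, against 9.31% of all tested genes. Their median of -0.27 was the lowest of the groups and negative under all 4 scalings, and 5 of the 36 genes belong to the set that follows 3 libraries. Slc38a3, which exchanges glutamine, had 1199, 890 and 775 CPM in TERT(High) cells (mice 1 to 3) and 1244, 1057 and 670 CPM in TERT(Low) cells, and the order of the mice was the same in both groups. Slc38a4 was at 515 ± 72.5 CPM in TERT(High) cells and 509 ± 67.0 CPM in TERT(Low) cells, Slc38a2 at 60.1 ± 21.9 and 46.0 ± 19.8 CPM, and Slc3a2, the shared heavy subunit of several exchangers, at 38.5 ± 2.46 and 40.5 ± 4.82 CPM. The carrier of cationic amino acids Slc7a2 had 158, 163 and 114 CPM in TERT(High) cells and 93.0, 124 and 97.4 CPM in TERT(Low) cells (0.47, SE 0.20, edgeR adjusted p = 0.184).

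The lower amino acid carriers included 2 carriers of glutamate. Slc7a11, which trades glutamate for cystine, was low in all libraries, at 0.669, 0.958 and 1.17 CPM in TERT(High) cells (mice 1 to 3) and 1.88, 1.78 and 1.92 CPM in TERT(Low) cells (-0.99, SE 0.30, edgeR adjusted p = 0.0828, DESeq2 adjusted p = 0.0335). Slc1a2, a glutamate carrier of astrocytes that hepatocytes around the central vein also make, had 6.22, 8.32 and 14.8 CPM in TERT(High) cells and 33.3, 18.6 and 15.8 CPM in TERT(Low) cells (-1.21, SE 0.41, edgeR adjusted p = 0.111, DESeq2 adjusted p = 0.0168). Its groups did not overlap, and its highest library, TERT(Low) of mouse 1, was also the library with the most brain marker RNA (79.5 CPM, described below). The part of such RNA in the Slc1a2 values was not tested. The length and GC correction moved Slc7a11 to -2.07 and Slc1a2 to -2.28 on the log2 scale (edgeR adjusted p = 0.0734 for both). Both have long transcripts (9223 and 11595 nt), and the correction moved the median of the longest class of solute carriers from -0.02 to -0.75. Slc6a13, a carrier of GABA and taurine, averaged 281 ± 32.0 CPM in TERT(High) cells and 406 ± 97.6 CPM in TERT(Low) cells, with overlap (-0.53, SE 0.21, edgeR adjusted p = 0.160).

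Carriers of fuels showed no edgeR call. The 15 carriers of sugars and sugar phosphates had 0 higher and 1 lower at unadjusted p below 0.05, the 8 of mono-, di- and tricarboxylates 0 and 1, and the 4 of fatty acids 0 and 0. Of all tested genes 16.3% were higher and 12.4% lower at that unadjusted p. DESeq2 called 1 of these 27 genes, the sugar carrier Slc50a1, lower, against 9.31% of all tested genes. Slc2a2, the glucose carrier of the hepatocyte, had 453, 142 and 197 CPM in TERT(High) cells (mice 1 to 3) and 330, 225 and 235 CPM in TERT(Low) cells, and its log2 fold change of 0.00 turned to -0.69 in DESeq2 without TERT(High) of mouse 1 (adjusted p = 0.0418). Slc37a4, which moves glucose 6-phosphate into the endoplasmic reticulum, had 352, 194 and 173 CPM in TERT(High) cells and 535, 455 and 235 CPM in TERT(Low) cells. It was lower in the TERT(High) cells of each mouse, with overlap of the groups (-0.77, SE 0.39, edgeR adjusted p = 0.252), and correcting for length and GC content left -0.33. Slc50a1 was at 6.26 ± 0.264 CPM in TERT(High) cells and 9.33 ± 0.739 CPM in TERT(Low) cells, without overlap (-0.58, SE 0.15, edgeR adjusted p = 0.0628). The length and GC correction took its log2 fold change to -0.07.

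Slc2a1, the glucose carrier of many other cells, was at 8.56 ± 1.56 CPM in TERT(High) cells and 13 ± 5.21 CPM in TERT(Low) cells, and Slc2a9, a urate carrier, at 44.7 ± 4.33 and 46.2 ± 6.61 CPM. Slc27a5, which activates bile acids for conjugation, had the highest level per kilobase of all 197 genes, with 475 CPM per kb in TERT(High) cells and 626 CPM per kb in TERT(Low) cells. In CPM it had 936, 1351 and 974 in TERT(High) cells and 1357, 1759 and 1183 in TERT(Low) cells (-0.40, SE 0.23, edgeR adjusted p = 0.301). Slc27a2, an activating enzyme of very long chain fatty acids, was at 647 ± 107 CPM in TERT(High) cells and 559 ± 179 CPM in TERT(Low) cells. Slc16a1, a lactate carrier, was at 51.1 ± 6.84 and 58.4 ± 17.2 CPM, and Slc13a5, a citrate carrier, at 1.99 ± 0.447 and 1.75 ± 0.902 CPM. Slc16a11 of the monocarboxylate carriers, called lower with the mouse as a block (adjusted p = 0.0494), averaged 6.58 ± 2.20 CPM in TERT(High) cells and 11.2 ± 2.15 CPM in TERT(Low) cells.

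Carriers of vitamins, phosphate and nucleosides held 0 calls by edgeR, 0 by DESeq2 and 0 genes at unadjusted p below 0.05 among 12, 13 and 3 genes. Slc23a1, the ascorbate carrier, was at 41.2 ± 3.31 CPM in TERT(High) cells and 35.0 ± 6.19 CPM in TERT(Low) cells, Slc19a1, a folate carrier, at 5.67 ± 1.94 and 8.12 ± 2.54 CPM, and Slc29a1, a nucleoside carrier, at 109 ± 13.4 and 172 ± 77.3 CPM. Of the 5 genes that encode no transporter, Slc4a1ap, a nuclear protein, had 4.88, 7.08 and 7.55 CPM in TERT(High) cells (mice 1 to 3) and 3.80, 3.06 and 3.51 CPM in TERT(Low) cells (0.91, SE 0.23, edgeR adjusted p = 0.0557, DESeq2 adjusted p = 0.00926).

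The lowest fold changes of the family came from carriers, many of them known from neurons and glia, whose RNA was present in 3 libraries and close to 0 in the other 3. In 14 genes the values in TERT(High) of mouse 3, TERT(Low) of mouse 1 and TERT(Low) of mouse 3 all lay above those of the other 3 libraries and averaged over 4 times as much, a rule set after the values were seen and so given without a test. They include Slc17a7, which loads glutamate into synaptic vesicles, Slc12a5, the neuronal potassium-chloride cotransporter, and Slc1a3, a glutamate carrier of glia. Slc17a7 had 0.131, 0.0165 and 3.77 CPM in TERT(High) cells (mice 1 to 3) and 10.4, 0.0191 and 3.21 CPM in TERT(Low) cells. Slc12a5 had 0.277, 0.231 and 2.33 CPM in TERT(High) cells and 4.51, 0.0382 and 1.99 CPM in TERT(Low) cells. The summed level of the 14 genes was 1.62, 0.826 and 25.7 CPM in TERT(High) cells and 55.9, 0.611 and 18.7 CPM in TERT(Low) cells.

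The 7 brain marker genes added after the data were seen (Snap25, Camk2a, Mbp, Gfap, Nrgn, Map2 and Stmn2) summed to 2.11, 0.314 and 35.2 CPM in TERT(High) cells and 79.5, 0.286 and 33 CPM in TERT(Low) cells, high in the same 3 libraries. The log2 fold changes of the 14 genes ran from -1.84 to -0.50 with a median of -1.41, and the 10 lowest of the family were among them. The rule takes high values in 2 TERT(Low) libraries and 1 TERT(High) library, so negative fold changes follow largely from the rule itself. Of the 14 genes 7 reached the minimum count only through TERT(Low) libraries (Slc38a1, Slc8a2, Slc2a3, Slc8a1, Slc2a13, Slc7a8 and Slc22a17), so that their low fold changes come in part from how the genes were chosen. Their SE ran from 1.17 to 2.08, and 0 of them had an unadjusted p under 0.05 in edgeR. Genes of this pattern were 7.11% of the solute carriers and 5.89% of all tested genes (782). Without the 14 genes, taken out by a rule that favours low fold changes, the family's median was -0.08. Without the 3 libraries, which leaves 2 TERT(High) libraries and 1 TERT(Low) library, edgeR gave a log2 fold change of 1.05 for Slc4a4. That fit assumes that the lone library varies like the others, so its calls are not counted here.

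**Figure D3:**
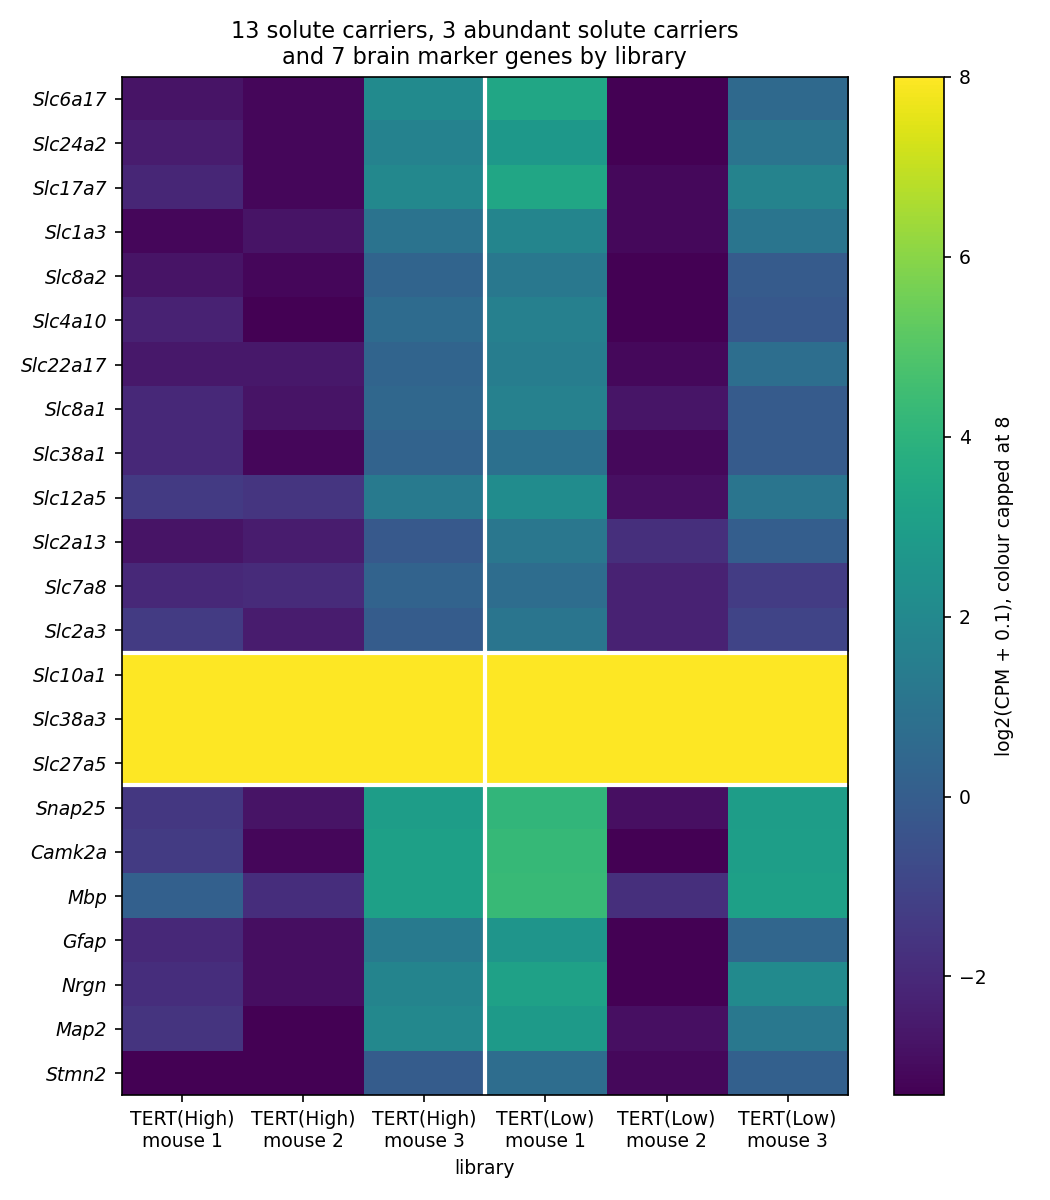
Log2(CPM + 0.1) by library (columns, TERT(High) left of TERT(Low)) for 13 of the 14 solute carriers of this pattern (top), 3 abundant solute carriers (middle, at the colour cap in every library) and 7 brain marker genes (bottom). The top and bottom blocks are both bright in TERT(High) of mouse 3, TERT(Low) of mouse 1 and TERT(Low) of mouse 3, and dark in the other 3 libraries.

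Solute carriers varied more between mice than between the sorted groups. For the median gene of the family the group accounted for 12.8% and the mouse for 57.3% of the sum of squares of the log2 levels, against 33% and 36.5% for the median of all tested genes. By degrees of freedom alone the shares would be 20% and 40%. The mouse share exceeded the group share in 144 of the 197 genes (73.1%), against 52.5% of all tested genes, and in 71.0% of the 183 genes without the 14 above. These shares are descriptions without a test. In 13 genes of at least 5 CPM the mouse share was over 75% and the highest mouse was over 2.5 times the lowest.

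Some of these 13 genes were high in mouse 1. Slco1a1, an organic anion carrier known to be more abundant in male than in female mouse liver, had 495, 41.0 and 44.5 CPM in TERT(High) cells (mice 1 to 3) and 172, 13.7 and 32.1 CPM in TERT(Low) cells. It was higher in the TERT(High) cells of each mouse, while the spread between mice was larger than that difference (1.41, SE 1.27, edgeR adjusted p = 0.524, and 0.0531 with the mouse as a block), and the length and GC correction lowered it to 0.64. Slc6a9, a glycine carrier, had 110, 34.0 and 33.5 CPM in TERT(High) cells and 90.4, 38.0 and 29.3 CPM in TERT(Low) cells, with reads that may belong to the overlapping Ccdc24. Slc22a28 had 89.1, 31.3 and 31.5 CPM in TERT(High) cells and 77.6, 30 and 47.6 CPM in TERT(Low) cells. Slc22a30, whose promoter differs from that of Slc22a28 at 6 of the 294 aligned bases printed above and which falls just outside the rule for the 13 genes, had 188, 79.0 and 81.9 CPM in TERT(High) cells and 160, 78.6 and 121 CPM in TERT(Low) cells. As close paralogs these genes may share reads, so that their levels are uncertain.

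Others were high in mouse 3 or in mouse 2. Slco1a4, on the same chromosome as Slco1a1, had 50.9, 78.4 and 123 CPM in TERT(High) cells (mice 1 to 3) and 31.6, 59.8 and 138 CPM in TERT(Low) cells, lowest in mouse 1, where Slco1a1 was highest. Slc22a26 had 12.1, 36.3 and 60.4 CPM in TERT(High) cells and 8.54, 10.5 and 58.1 CPM in TERT(Low) cells, and Slc22a27 was also highest in mouse 3 in both groups. Slc34a2, a phosphate carrier, had 76.0, 293 and 204 CPM in TERT(High) cells and 63.3, 432 and 119 CPM in TERT(Low) cells, highest in mouse 2. Slc3a1, the heavy subunit of a carrier of cystine and dibasic amino acids that overlaps Prepl, and Slc13a3, a dicarboxylate carrier, were also highest in mouse 2 in both groups. The remaining genes of the 13 were Slc8b1, Slc20a1, Slc22a5 and Slc1a4.

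Because Slco1a1 and the Slc22a genes are known to differ by sex in mouse liver and the labels used here give no sex, genes of that kind were looked up after these values had been seen. The counts of Xist, expressed in female cells, were 37, 6 and 2 in TERT(High) cells and 3, 3 and 2 in TERT(Low) cells, and the Y-linked Ddx3y, Uty, Kdm5d and Eif2s3y were detected in every library, from 1.93 to 27.0 CPM. By these genes every library held RNA of male cells, so the mice appeared to be of the same sex. Of the Y-linked genes Uty was higher in TERT(High) cells (1.09, SE 0.20, edgeR adjusted p = 0.0332). Hsd3b5, known to be more abundant in males, had 24.1, 2.23 and 0.360 CPM in TERT(High) cells and 39.3, 0.668 and 0.360 CPM in TERT(Low) cells. Cyp4a12a, also more abundant in males, had 34.4, 10.1 and 1.90 CPM in TERT(High) cells and 36.6, 8.25 and 2.67 CPM in TERT(Low) cells. Both were highest in mouse 1, as Slco1a1 was. Cyp2b13, known to be more abundant in females, had 4.05, 7.42 and 31.2 CPM in TERT(High) cells and 4.90, 0.917 and 48.3 CPM in TERT(Low) cells, highest in mouse 3, as Slc22a26 and Slco1a4 were.

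Not all genes looked up had this order of the mice. Cyp2a4, another gene more abundant in females, had 775, 82.8 and 306 CPM in TERT(High) cells and 828, 33.2 and 464 CPM in TERT(Low) cells, highest in mouse 1. Mup20 had 1229, 784 and 727 CPM in TERT(High) cells and 1201, 1674 and 1119.5 CPM in TERT(Low) cells, and Cyp7b1 and Elovl3 likewise gave different orders in TERT(High) and TERT(Low) cells. Cyp2b9 and Sult3a1 were highest in mouse 3 in both groups, Sult3a1 below 1 CPM throughout. How the order of the mice in these genes relates to the solute carrier values was not tested.

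**Figure D4:**
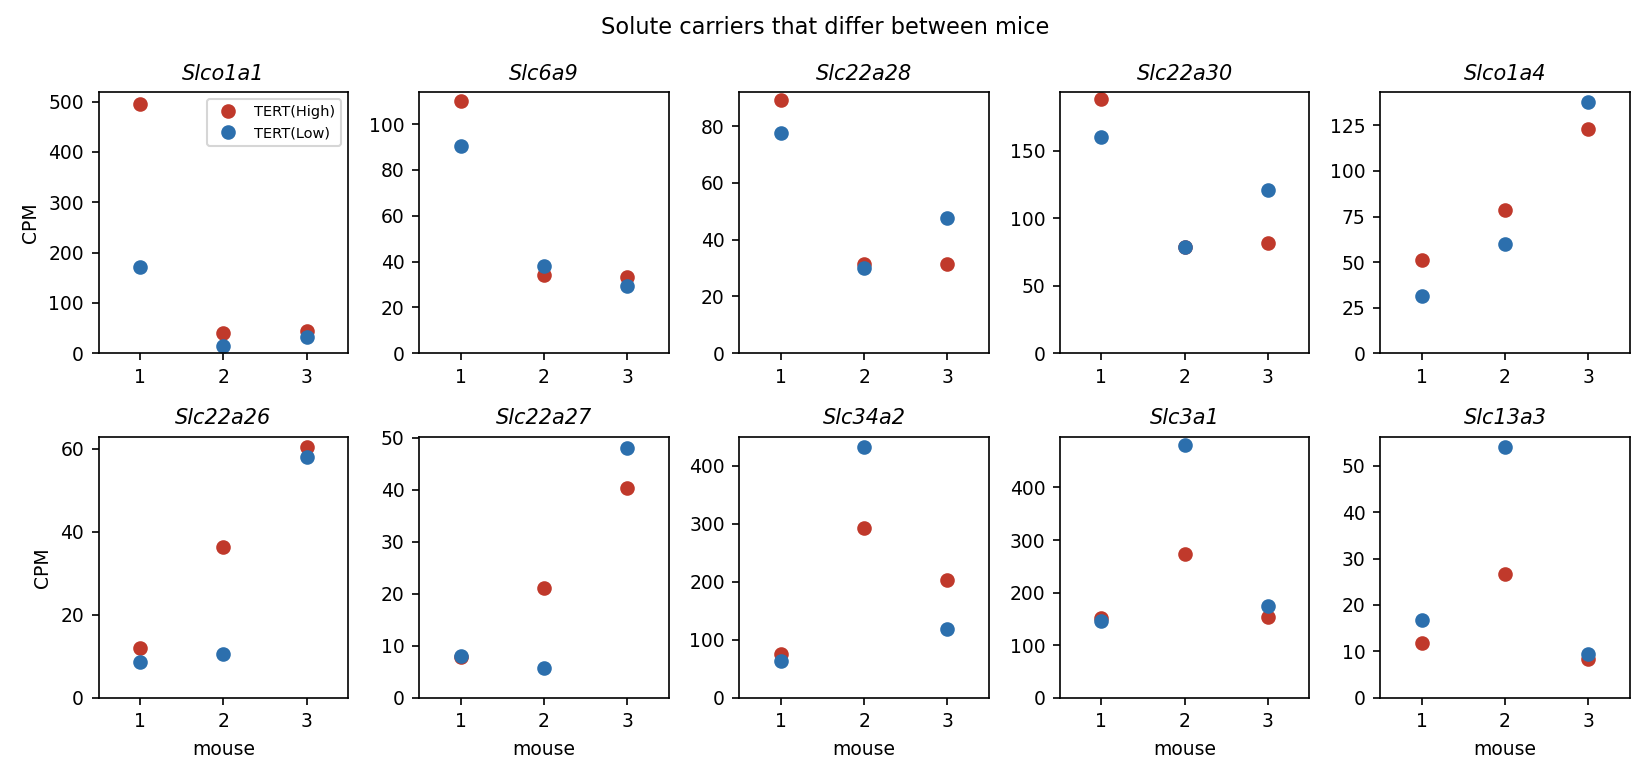
CPM of 10 solute carriers by mouse (horizontal axis), TERT(High) in red and TERT(Low) in blue, on linear axes from 0 that differ between panels. Both points of a mouse lie together in most panels, with Slco1a1, Slc6a9, Slc22a28 and Slc22a30 highest in mouse 1, Slco1a4, Slc22a26 and Slc22a27 in mouse 3 and Slc34a2, Slc3a1 and Slc13a3 in mouse 2.

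Transcript length was related to the fold change less steeply in the solute carriers than in other genes. Over the 5 length classes of the family, from 709 to 2255 nt up to 4976 to 11595 nt, the median log2 fold change was -0.33, -0.27, -0.08, 0.08 and -0.02. In all other tested genes of the same lengths it was -0.34, 0.00, 0.14, 0.31 and 0.68. Without the 14 genes that follow 3 libraries the medians of the family were -0.33, -0.25, -0.07, 0.14 and 0.08. The rule for these 14 genes favours low fold changes, so values given here without them follow in part from that choice. Spearman's correlation of length with the log2 fold change was 0.253 over the 196 solute carriers with an annotated coding transcript and 0.382 without the 14, against 0.487 over 12352 other genes, where genes share the same 6 libraries and are not independent replicates. Of the 40 longest solute carriers edgeR called 0 higher and 0 lower, while in other genes of those lengths it called 372 higher and 4 lower of 2384. With that correction for length and GC content the family's median was -0.28, against -0.04 over all tested genes. edgeR then called no tested gene at all (smallest adjusted p = 0.0588), so its 0 calls among solute carriers are not particular to them. At unadjusted p below 0.05, 2 solute carriers were higher and 28 lower. The matching share of all tested genes was not counted, so these counts do not show a trait of the family. The correction moved the median of the longest class of solute carriers from -0.02 to -0.75.

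**Figure D5:**
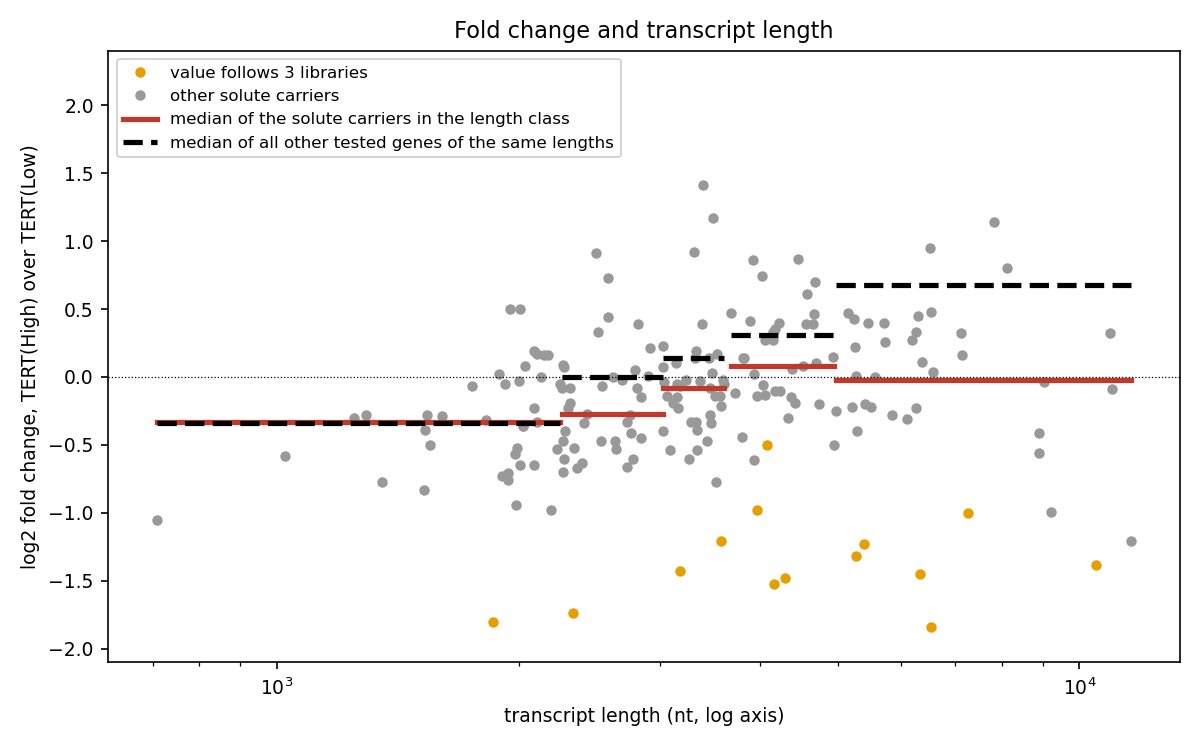
Log2 fold change (TERT(High) over TERT(Low)) of 196 solute carriers against transcript length in nt (log axis), with orange points for the 14 genes that follow 3 libraries, red lines for the family's median in each length class and black dashed lines for all other tested genes of the same lengths. The red and black lines meet in the shortest class (-0.33 and -0.34) and lie apart in the longest (-0.02 and 0.68).

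Other transport genes of the hepatocyte without an Slc symbol, a list of 30 of which 28 were in the table, had 2 genes higher and 0 lower by edgeR. DESeq2 called 8 higher and 3 lower, and edgeR with a mouse block 5 higher and 2 lower. At unadjusted p below 0.05 there were 9 higher and 4 lower, against 16.3% and 12.4% of all tested genes. The list's median log2 fold change was 0.19, and -0.06 after the length and GC correction, against -0.01 and -0.04 over all tested genes. Abcb11, the pump that releases bile salts into bile, had 226, 275 and 298 CPM in TERT(High) cells (mice 1 to 3) and 102, 140 and 120 CPM in TERT(Low) cells, without overlap. Its means were 266 ± 36.6 CPM in TERT(High) cells and 121 ± 19.2 CPM in TERT(Low) cells (SD, n = 3 each; 1.14, SE 0.18, edgeR adjusted p = 0.0277), while the uptake carrier Slc10a1 was at 462 ± 116 and 485 ± 43.7 CPM. The difference between these 2 fold changes was not tested. Abca1, which exports cholesterol, rose by 1.43 on the log2 scale (SE 0.30, edgeR adjusted p = 0.0405), at 98.5 ± 5.63 CPM in TERT(High) cells and 36.7 ± 14.4 CPM in TERT(Low) cells. After the length and GC correction edgeR called no tested gene, Abcb11 and Abca1 included (smallest adjusted p = 0.0588). Of 10 regulators of transporter genes, including Hnf4a and Nr1h4, edgeR called 0, with 2 higher and 1 lower at unadjusted p below 0.05, and DESeq2 called 1 higher.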

How the data were processed

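Hepatocytes of 3 mice, each sorted by Tert status, gave 6 libraries of polyadenylated RNA made with a stranded kit, per the labels. The submitters' processing notes name the genome mm10 and the tools TopHat2 2.0.13, Trim Galore 0.4.0 and DESeq2. Which tool counted the reads, with what annotation and strand setting, is not given in the sources used here, so reads of the 32 solute carriers that overlap another gene of the table, and of close paralogs, are uncertain. Counts were deposited raw, without scaling. The authors' second table gives for each gene a signal value that is a mean of scaled counts, log2 fold changes with standard errors, a score that is the test statistic, and the p-value and adjusted p of their own comparison, per the file headers.

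Tests were run in R 4.3.3 with edgeR 4.0.16 after filterByExpr, with TMM scaling, a robust quasi-likelihood fit of the group alone over all 13288 tested genes and Benjamini-Hochberg adjusted p under 0.05. The procedure was tested on simulated data. The common biological coefficient of variation was 40.7%, and 29.6% with the mouse as a block. Per the labels, libraries of 1 number come from 1 mouse. Deviations from the group means correlated between the libraries of mice 1, 2 and 3 at -0.089, 0.733 and 0.601. Alternatives used DESeq2 1.42.0, limma-voom (limma 3.58.1), other scalings, filters, thresholds and libraries, and a correction of trends with GC content and transcript length within libraries (splines of 4 degrees of freedom each). Lengths are of the GENCODE M21 transcript with the longest coding sequence, and coordinates and promoters are from RefSeq on GRCm38.p6. Shares of variance are sums of squares of log2(CPM + 0.1).

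The genes described and all lists were chosen with earlier results of these data known. Genes were named as 30 landmark carriers, called genes with the largest change, the 5 most abundant, those next to the minimum count and called genes of the lists outside the family. Others are named as chosen after their values were seen. P-values set the group difference against the spread of libraries within groups and treat the libraries as independent, although each mouse gave both groups. Where the block is named they set it against the spread left after differences between mice are removed. Tables and plots used matplotlib 3.10.9, numpy 2.4.6 and pandas 2.3.3 in Python 3.11.15. Some single genes are not reported here.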

Additional observations from a re-analysis of the deposited data

How the results depend on the processing

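The edgeR counts of solute carriers, 1 higher and 1 lower (median log2 fold change -0.14), were the same with DESeq2 size factors and with minimum counts of 10 or 100. Upper-quartile scaling gave 6 lower, library totals alone 2 higher and 0 lower (median 0.03), no filter 0 lower, and a filter of 1 CPM 3 higher and 4 lower. The mouse as a block gave 2 higher and 4 lower. DESeq2 gave 5 and 13 (9.14% of the solute carriers against 20.2% of all tested genes), limma-voom 4 and 10, and an adjusted p under 0.10 gave 5 and 11. Shares of all tested genes were counted only for the main fit, the block, DESeq2 and the corrected fits. Counts in this section from other settings are therefore not shown to be particular to the family. The length and GC correction gave 0 and 0 (median -0.28), and with the replicate block 0 and 0 (median -0.29). Neither corrected fit called any tested gene, inside or outside the family. With each library left out in turn edgeR gave 0 to 3 higher and 0 to 5 lower (medians from -0.34 to -0.07), with each mouse left out 0 and 0 (medians from -0.16 to -0.03), and DESeq2 with each library left out 3 to 5 higher and 3 to 25 lower, with medians from -0.34 to -0.08. Of these edgeR fits that without TERT(High) of mouse 1 alone made calls. Single libraries moved DESeq2's lower count to 7 (without TERT(High) of mouse 3) and 8 (without TERT(Low) of mouse 1). Slc2a2 turned to -0.69 in DESeq2 without TERT(High) of mouse 1. Chosen after seeing the data, the fit without the 3 libraries with brain marker RNA left 1 TERT(Low) library, so its calls are not counted. The causes were not tested. With 3 mice and levels near 1 CPM for many of these genes, a call missed does not show equal RNA.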
